A study of Mus musculus with 9 samples.

Results

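The genes described here are 5 EphA receptors (Epha3, Epha4, Epha5, Epha6 and Epha7) and the 5 A-class ephrins that bind such receptors (Efna1, Efna2, Efna3, Efna4 and Efna5). They were taken by gene symbol from comparison tables of 23038 genes each, and all 10 were present. The levels of Epha4 and of Efna5 differed in opposite directions between mechanosensory neurons of Runx3 mutants and both other neuron populations. The 2 populations with intact Runx3 had log2 fold changes over the mutants of 1.49 and 1.89 for Epha4 and of -1.12 and -1.25 for Efna5 in the authors' deposited table. Epha7 was also lower in the mutants in both comparisons, by less, and Epha5 and Epha6 each passed in 1 of the 2. Between the 2 populations with intact Runx3, 0 of the 10 genes passed.

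EphA receptors are receptor tyrosine kinases of the cell surface, and A-class ephrins are their ligands, held in the membrane of a neighbouring cell by a lipid (GPI) anchor. Contact between the cells signals forward into the cell with the receptor, where it acts on the actin cytoskeleton and usually turns a growth cone away, and in reverse into the cell with the ephrin, which needs co-receptors because an ephrin-A has no cytoplasmic part. The system is best known for topographic maps and for the choice of limb territory by motor axons. In mouse embryos, EphA3 and EphA4 on motor axons are known to act through ephrin-As on sensory axons, which then follow those motor axons.

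RNA of fluorescence-sorted sensory neurons was sequenced from the dorsal root ganglia of neonatal mice in 9 samples that form 3 groups of 3. TrkC:GFP samples came from mice with a bacterial artificial chromosome transgene that puts GFP under TrkC (Ntrk3) control, and were labelled as proprioceptors with slowly adapting low-threshold mechanoreceptors. They were taken at postnatal days 6, 2 and 1 from 4, 2 and 4 animals. Rx3+/+;PV:tdT samples carried PV:Cre, which expresses Cre from the parvalbumin gene, and a Cre-dependent tdTomato reporter, with wild-type Runx3 (Rx3). They hold proprioceptors with rapidly adapting low-threshold mechanoreceptors, and were taken at days 6, 4 and 3 from 4, 3 and 3 animals. Rx3-/-;PV:tdT samples carried the same driver and reporter in a Runx3 mutant, and were taken at days 3, 0 and 0 from 1, 1 and 4 animals. Proprioceptors do not survive in these mutants, so the label names rapidly adapting mechanoreceptors alone. Their purity was not tested, and reads of nociceptor and kidney genes in some of these libraries are given below. The strain background was a C57 and Sv129 mixture in all groups, both sexes were used, and the reporter is named Ai14 in the sample labels and Ai9 in the series text. The groups are called TrkC, wild-type PV and mutant PV below. Setting them against each other asks which genes go with each kind of mechanosensory neuron.

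The deposited tables give 1 RPKM value (reads per kilobase of gene, scaled to the library's depth) per gene and group. Whole reads per library were recovered from the digits of these values for all 10 genes and for 97.6% of the genes in the tables. Libraries are therefore named by their depth within their group, as deepest, middle and shallowest, since no library could be tied to a replicate number, an age or an animal. TrkC libraries had 7.78 to 12.2 M counted reads, those of wild-type PV 11.6 to 13.7 M, and those of mutant PV 12.8, 12.2 and 4.51 M. In the authors' deposited table, Runx3 itself was at 33.8 RPKM for TrkC, 30.4 for wild-type PV and 13.5 for mutant PV. Runx3 reads were thus present in the mutants, and no source used here says which part of the gene the allele removes. The deepest and middle mutant PV libraries held 641 and 849 reads of the kidney gene Ren2 and the shallowest held 0, as did all wild-type PV and TrkC libraries.

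Seen by level, Epha6 and Efna5 led in every library. In the TrkC group the order of mean RPKM was Epha6 at 25.8, Efna5 at 17.8, Epha7 at 8.65, Epha4 at 6.71, Efna3 at 4.56, Epha3 at 3.07, Epha5 at 1.73, Efna2 at 1.06 and Efna1 at 0.412. The ranges of Epha7 and Epha4 overlapped, as did those of Efna3 and Epha3 and those of Efna2 and Efna1, and all other neighbours in that order were apart. Wild-type PV neurons had the same leading pair, with Epha6 at 22.5 and Efna5 at 16.3 RPKM, and Epha4 came before Epha7 there, at 8.80 and 7.83, with overlapping ranges. Mutant PV neurons had Efna5 first, at 38.6 RPKM, and Epha6 next, at 16.5, with no overlap between them. Epha7 at 5.13 RPKM and Efna3 at 4.4 followed, and from there on each gene overlapped the next down to Epha5 at 1.06. Efna4 was at or near 0 in all 9 libraries.

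**Figure D1:**
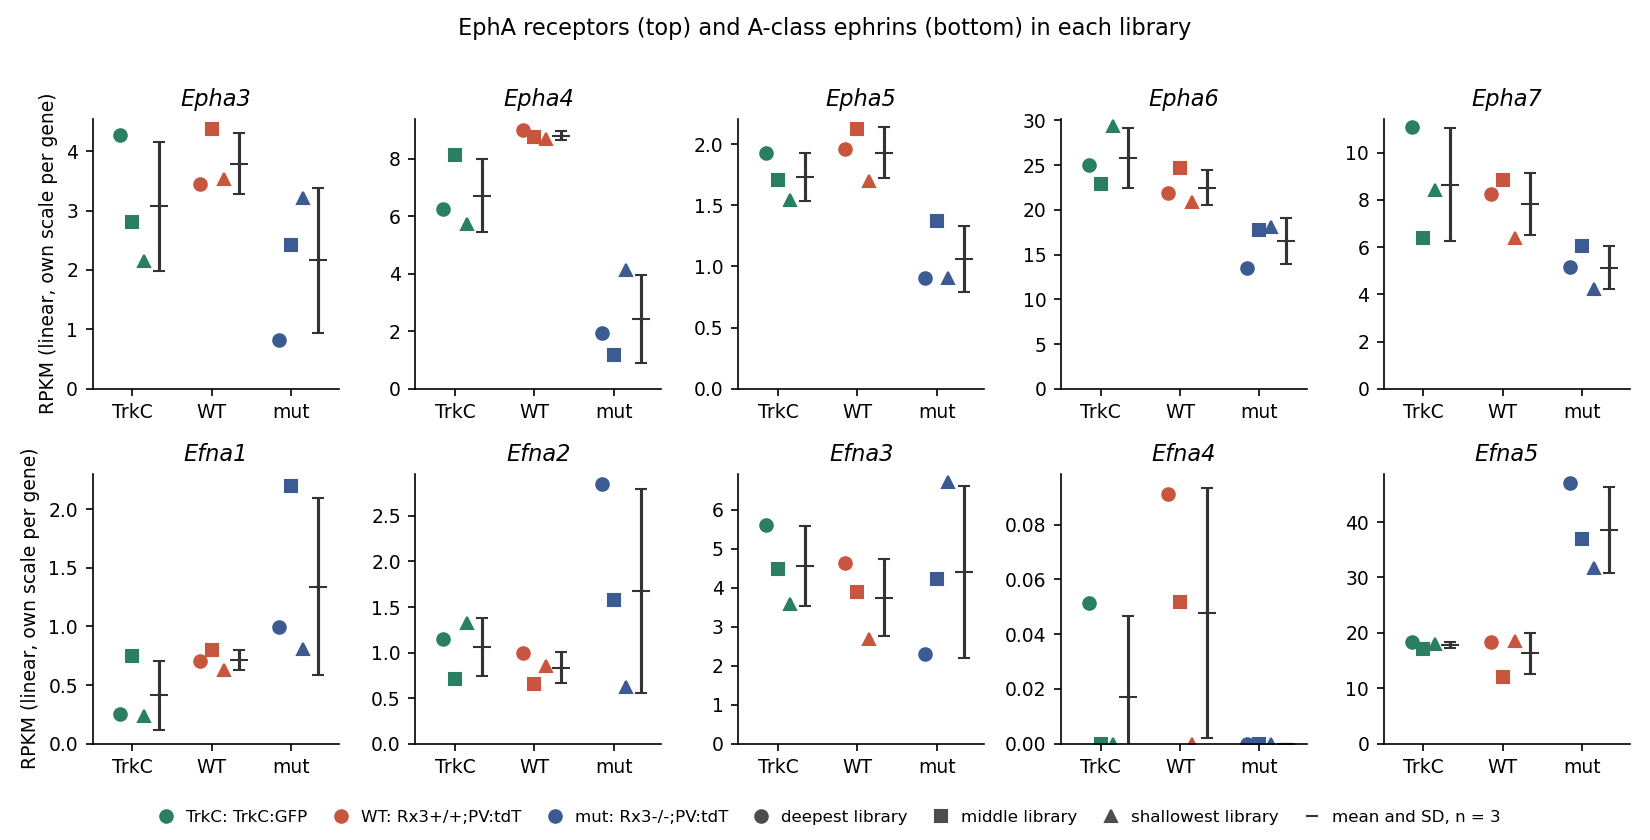
RPKM of each of the 10 genes in each library (linear axis from 0, a separate scale per gene), with colours for the 3 groups, marker shapes for the library's depth within its group, and the mean with its SD (n = 3) beside each set. The 3 mutant PV libraries lie below the other 6 for Epha4, Epha5, Epha6 and Epha7 and above them for Efna1 and Efna5. For Efna1 the margin is small, at 0.810 against 0.802 RPKM.

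Epha4, a receptor that binds both A-class and some B-class ephrins (chr1:77367182-77515107, GRCm38.p6), had the largest difference among the receptors. It was read at 6.25, 8.14 and 5.73 RPKM in the deepest, middle and shallowest TrkC libraries, a mean of 6.71 ± 1.27 (SD, n = 3). In wild-type PV neurons it was at 8.98, 8.76 and 8.67 RPKM, a mean of 8.80 ± 0.156 (SD, n = 3). Mutant PV neurons held 1.94, 1.17 and 4.13 RPKM, a mean of 2.41 ± 1.53 (SD, n = 3). All 6 libraries with intact Runx3 were above all 3 mutant libraries, and the mutant library without Ren2 reads, the shallowest, was the highest of the mutant 3. Over the mutants, the authors' deposited table gives log2 fold changes of 1.49 in TrkC (adjusted p = 0.00152 by edgeR) and 1.89 in wild-type PV (adjusted p = 1.28e-06 by edgeR). On the recovered reads, limma-voom gave 1.85 ± 0.29 (SE, adjusted p = 0.000609) and 2.25 ± 0.28 (SE, adjusted p = 9.83e-05), with 95% intervals from 1.23 to 2.47 and from 1.65 to 2.85. Both calls held with each of the 9 libraries left out in turn.

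Efna5, the ligand ephrin-A5 and a repellent in retinal and limb axon guidance (chr17:62602957-62881317), went the other way. TrkC libraries had 18.3, 17.1 and 18.0 RPKM, a mean of 17.8 ± 0.615 (SD, n = 3). Wild-type PV libraries had 18.3, 12.0 and 18.5 RPKM, a mean of 16.3 ± 3.68 (SD, n = 3). Mutant PV libraries had 47.0, 36.9 and 31.8 RPKM, a mean of 38.6 ± 7.75 (SD, n = 3). Every mutant library was above every other library, including the shallowest one, which held 0 reads of Ren2. Against the mutants, the authors' deposited table gives log2 fold changes of -1.12 for TrkC (adjusted p = 2.86e-06 by edgeR) and -1.25 for wild-type PV (adjusted p = 2.92e-07 by edgeR). The limma-voom values were -1.13 ± 0.18 (SE, adjusted p = 0.000668) and -1.29 ± 0.18 (SE, adjusted p = 0.000211), and both calls held in all 9 fits with a library left out. In these bulk samples, fewer cells of a type and less RNA per cell cannot be told apart.

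These 2 genes differed in opposite directions between the mutants and both other groups, and their promoters are shown. The mutant group also differs in neuron makeup and age, and the part of the Runx3 genotype was not tested. Each line gives the 250 bases before an annotated transcript start on the minus strand, from RefSeq on GRCm38.p6, for chr1:77515089-77515338 (Epha4) and chr17:62881318-62881567 (Efna5). Capitals mark a match to TGTGGT or TGCGGT on either strand, the core letters that RUNX-family factors are known to bind.
Epha4: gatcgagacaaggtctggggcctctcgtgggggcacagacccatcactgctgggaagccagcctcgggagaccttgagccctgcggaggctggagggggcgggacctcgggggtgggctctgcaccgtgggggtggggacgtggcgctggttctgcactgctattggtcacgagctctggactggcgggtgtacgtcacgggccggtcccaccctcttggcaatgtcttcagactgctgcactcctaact
Efna5: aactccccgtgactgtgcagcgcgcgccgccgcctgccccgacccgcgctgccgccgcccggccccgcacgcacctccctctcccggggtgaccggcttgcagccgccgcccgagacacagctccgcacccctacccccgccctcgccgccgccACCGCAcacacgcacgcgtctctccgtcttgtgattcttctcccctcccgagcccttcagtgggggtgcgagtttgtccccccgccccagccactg
The Epha4 window held neither hexamer. The Efna5 window held 1 match, ACCGCA, which is TGCGGT on the other strand, 96 bases before the start. Among 32851 RefSeq promoter windows of the same length, 18.6% held at least 1 of the hexamers, against 3 of the 13 windows of the 10 genes. A match is a string of letters and not a measured site, and no binding was measured in these samples.

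Epha6 was the highest of the receptors (chr16:59641433-60610911) and made up 49.2% to 62.3% of the summed RPKM of the 5 in every library. It was at 25.0, 22.9 and 29.4 RPKM in the TrkC libraries, at 21.9, 24.7 and 20.9 in wild-type PV and at 13.5, 17.8 and 18.1 in mutant PV. The mutant libraries lay below the other 6. Log2 fold changes over the mutants, from the authors' deposited table, were 0.65 for TrkC (adjusted p = 0.0253 by edgeR), which passed, and 0.45 for wild-type PV (adjusted p = 0.0828 by edgeR), which did not. With limma-voom the second was 0.48 ± 0.15 (SE, adjusted p = 0.0314), and it passed in 5 of 9 fits with a library left out.

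Epha7, another receptor of topographic maps, with a short form that lacks the kinase (chr4:28813066-28967503), was at 11.1, 6.40 and 8.42 RPKM in the TrkC libraries. Wild-type PV libraries had 8.26, 8.86 and 6.38 RPKM and mutant PV libraries 5.15, 6.04 and 4.22. The lowest of the 6 other libraries exceeded the highest mutant library by a small margin. Both deposited comparisons called it, with log2 fold changes of 0.75 (adjusted p = 0.0291 by edgeR) and 0.60 (adjusted p = 0.0259 by edgeR) in the authors' deposited table. It is the least stable of the called genes: limma-voom gave 0.57 ± 0.21 (SE, adjusted p = 0.0629) for wild-type PV over mutants, and with 1 library left out it passed in 4 of 9 fits for TrkC and in 3 of 9 for wild-type PV. Leaving out the deepest TrkC library brought the first to 0.48 (limma-voom adjusted p = 0.156).

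Epha5, a receptor of the same group with a role in retinal and hippocampal maps (chr5:84054761-84417818), was the lowest of the 5. It was at 1.93, 1.71 and 1.54 RPKM in TrkC libraries, at 1.96, 2.12 and 1.70 in wild-type PV and at 0.908, 1.37 and 0.904 in mutant PV. The mutant libraries were again the lowest 3. The authors' deposited table calls wild-type PV over mutants at 0.83 (adjusted p = 0.0404 by edgeR) but not TrkC over mutants at 0.68 (adjusted p = 0.274 by edgeR). The call for wild-type PV held in 6 of 9 limma-voom fits with a library left out.

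Epha3, a receptor that binds ephrin-A5 strongly (chr16:63543532-63864175), was not called in any comparison of the authors' deposited table. TrkC libraries had 4.27, 2.80 and 2.15 RPKM, wild-type PV libraries 3.44, 4.37 and 3.54, and mutant PV libraries 0.827, 2.42 and 3.22. The spread among the mutants was wide: the deepest mutant library was the lowest of all 9 and the shallowest was within the TrkC range. Its log2 fold change for wild-type PV over mutants was 0.83 in the authors' deposited table (adjusted p = 0.172 by edgeR), and 1.21 ± 0.39 (SE) with limma-voom (adjusted p = 0.0348). Without the deepest mutant library the limma-voom value was 0.50 (adjusted p = 0.245).

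The remaining ligands were low or varied between libraries, and none was called in any comparison of the authors' deposited table. Efna1, the first ephrin described, lies at chr3:89271730-89280951. It was hit by 5, 13 and 3 reads among TrkC libraries, by 16, 16 and 12 in wild-type PV and 21, 44 and 6 in mutant PV, or 0.249, 0.751 and 0.235, then 0.709, 0.802 and 0.632, then 0.995, 2.20 and 0.810 RPKM. Its mutant libraries were above the other 6, but the counts were small. Its log2 fold changes, from the authors' deposited table, were -1.58 for TrkC against mutants (adjusted p = 0.163 by edgeR) and -0.92 for wild-type PV against mutants (adjusted p = 0.315 by edgeR).

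Efna2, which acts with Efna5 in retinal maps (chr10:80179482-80190010), was at 1.15, 0.713 and 1.33 RPKM in TrkC, 0.991, 0.657 and 0.852 in wild-type PV and 2.85, 1.58 and 0.624 in mutant PV. The 2 mutant libraries with Ren2 reads were above all others. The one without was the lowest of the 9 by a small margin, and its value rests on 6 reads. Log2 fold changes of Efna2 against mutants in the authors' deposited table were -0.70 for TrkC (adjusted p = 0.712 by edgeR) and -1.05 for wild-type PV (adjusted p = 0.212 by edgeR). Efna3, the astrocyte ligand that EphA4 on hippocampal dendritic spines binds (chr3:89313899-89322939), was at 5.61, 4.49 and 3.57 RPKM in TrkC and 4.64, 3.90 and 2.68 in wild-type PV. Mutant PV libraries had 2.29, 4.23 and 6.70 RPKM of Efna3, a range that contained all values of the other groups. Its deposited log2 fold change of -0.20 for wild-type PV against mutants was of the opposite sign with limma-voom, at 0.07, and neither passed (edgeR adjusted p = 1 in the authors' deposited table and limma-voom adjusted p = 0.916). Efna4 (chr3:89333393-89338028) had 1 read over the TrkC libraries, 3 over wild-type PV and 0 over mutant PV, at or under the limit of 3 reads that a count of 0 allows, so no fold is given.

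Counted over the 10 genes, TrkC against mutant PV had 3 genes called higher (Epha4, Epha6, Epha7) and 1 called lower (Efna5) in the authors' deposited table, where a call is an edgeR adjusted p under 0.05. Of all 23038 genes, 10.1% were called there, 5.87% higher and 4.2% lower, and 17.5% of genes with a mean log2 CPM (depth-scaled counts) of at least 4. Wild-type PV against mutant PV likewise had 3 called higher (Epha4, Epha5, Epha7) and 1 lower (Efna5), against 16.4% of all genes, 7.82% higher and 8.57% lower, and 29.1% of genes with that mean. Both comparisons use the same mutant PV samples, so their calls are not independent. The median log2 fold change of the 5 receptors was 0.68 and 0.83 in the 2 comparisons, and that of the 5 ephrins -0.70 and -0.92. Over all genes, which include genes without reads, the median was 0.00 in both. Over genes with a mean log2 CPM of at least 0 it was 0.08 and -0.05. Of the ephrins, Efna1, Efna2 and Efna4 had few reads.

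The joint comparison of TrkC and wild-type PV with mutant PV, which uses the same samples once more, called 4 receptors higher and Efna5 lower in the authors' deposited table, against 16.8% of all genes, 8.82% higher and 7.96% lower. Epha3 was the receptor not called there (adjusted p = 0.237 by edgeR). The authors' own flag was set for Epha4 and Efna5 only, in all 3 comparisons with the mutants.

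Read by library, the receptors that lay above all mutant libraries were 4 in TrkC (Epha4, Epha5, Epha6, Epha7) and all 5 in wild-type PV. Of the genes fitted, 20.6% and 20.9% lay wholly above the mutants in those comparisons. Efna1 and Efna5 lay wholly below in both the TrkC and the wild-type PV libraries, as 12.1% and 19.9% of the fitted genes did. For Efna1 the margin was small: the lowest mutant library had 0.810 RPKM from 6 reads, and the highest wild-type PV library 0.802 RPKM.

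**Figure D2:**
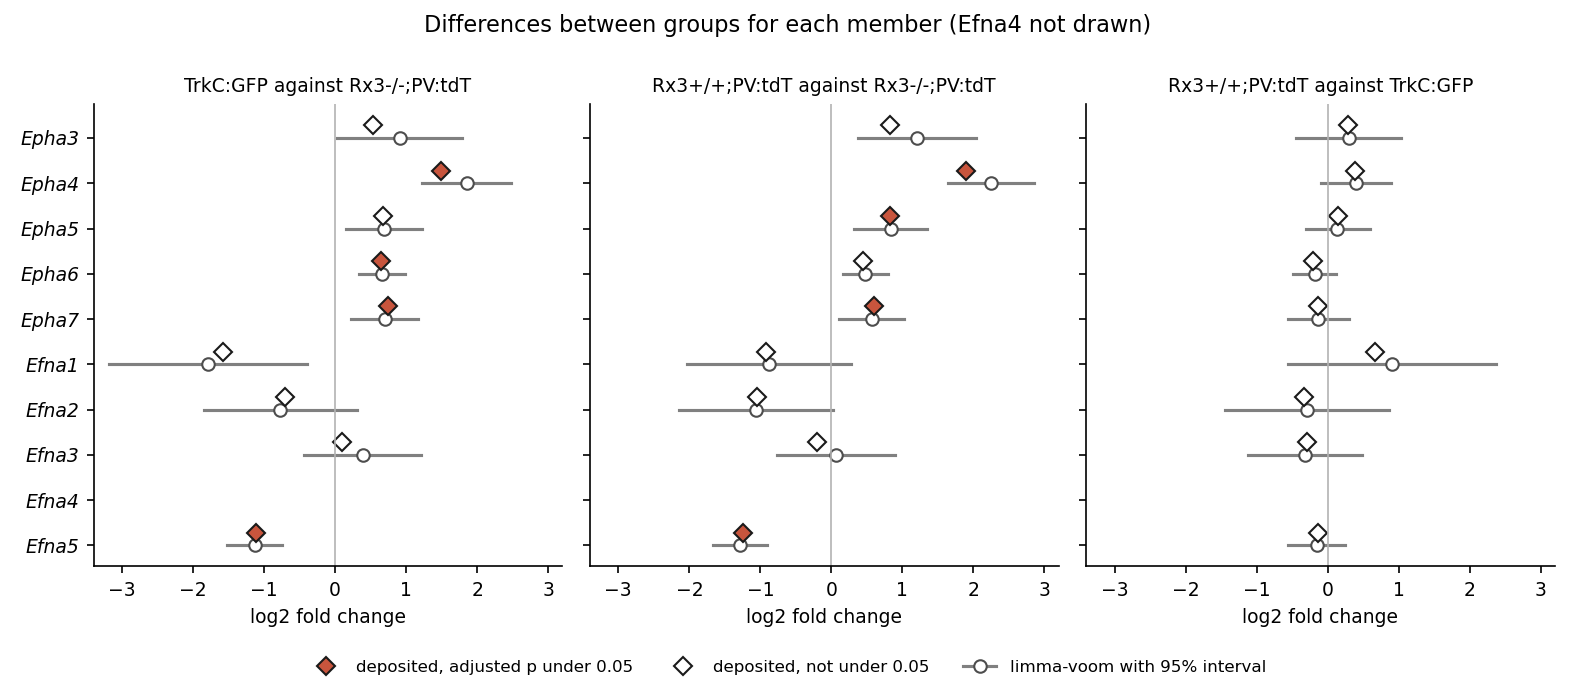
Log2 fold change of each gene in 3 comparisons (above 0: higher in the group named first). Diamonds are the deposited values, filled at an adjusted p under 0.05, and circles with lines are limma-voom estimates with 95% intervals. Epha4 and Efna5 stand farthest from 0 among the called genes in the first 2 panels, at 1.49 and 1.89 and at -1.12 and -1.25, and no gene is called in the third. Efna4 had too few reads to be drawn.

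Between the 2 populations with intact Runx3, wild-type PV against TrkC, 0 of the 10 genes were called by edgeR in the authors' deposited table or by limma-voom, where 2.78% of all genes were called in the table and 0.24% of fitted genes by limma-voom. Epha4 alone had an unadjusted edgeR p under 0.05 (0.022) in the authors' deposited table, at 0.39 on the log2 scale (adjusted p = 0.245 by edgeR), and its wild-type PV libraries were all above its TrkC libraries. Such a separation in that direction held for 7.11% of the fitted genes. The limma-voom value was 0.40 with a 95% interval from -0.09 to 0.89. For Efna5 the interval of that difference was -0.56 to 0.25 and for Epha6 -0.49 to 0.12. The median of all fitted genes in this comparison was -0.12 on the log2 scale, so Epha4 stood higher, and Efna5 and Epha6 closer to the other genes, relative to it. TrkC against both PV groups together also called 0 of the 10 by edgeR in the authors' deposited table, with 0 at an unadjusted p under 0.05 and 0 by limma-voom, against 0.456% of all genes in the table and 7.48% of fitted genes by limma-voom.

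Summing RPKM over each class set the receptors beside the ligands. The 5 receptors summed to 48.6, 41.9 and 47.3 RPKM in the TrkC libraries, 44.6, 48.8 and 41.2 in wild-type PV and 22.3, 28.8 and 30.6 in mutant PV. The 5 ephrins summed to 25.3, 23.0 and 23.1, then 24.7, 17.4 and 22.7, then 53.1, 44.9 and 39.9 RPKM. Receptor RPKM was 1.80 to 2.80 times ephrin RPKM in the 6 libraries with intact Runx3, and 0.420, 0.642 and 0.766 times in the mutant libraries. Efna5 made up 68.9% to 88.5% of the ephrin sum. Without Efna5 the ephrin sums overlapped, at 5.13 to 7.06 RPKM in TrkC, 4.17 to 6.43 in wild-type PV and 6.13 to 8.13 in mutant PV. Without Epha6 the receptor sums stayed apart, at 17.8 to 24.1 RPKM in the 6 libraries with intact Runx3 and 8.82 to 12.5 in the mutants. These sums describe the libraries and were not tested.

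**Figure D3:**
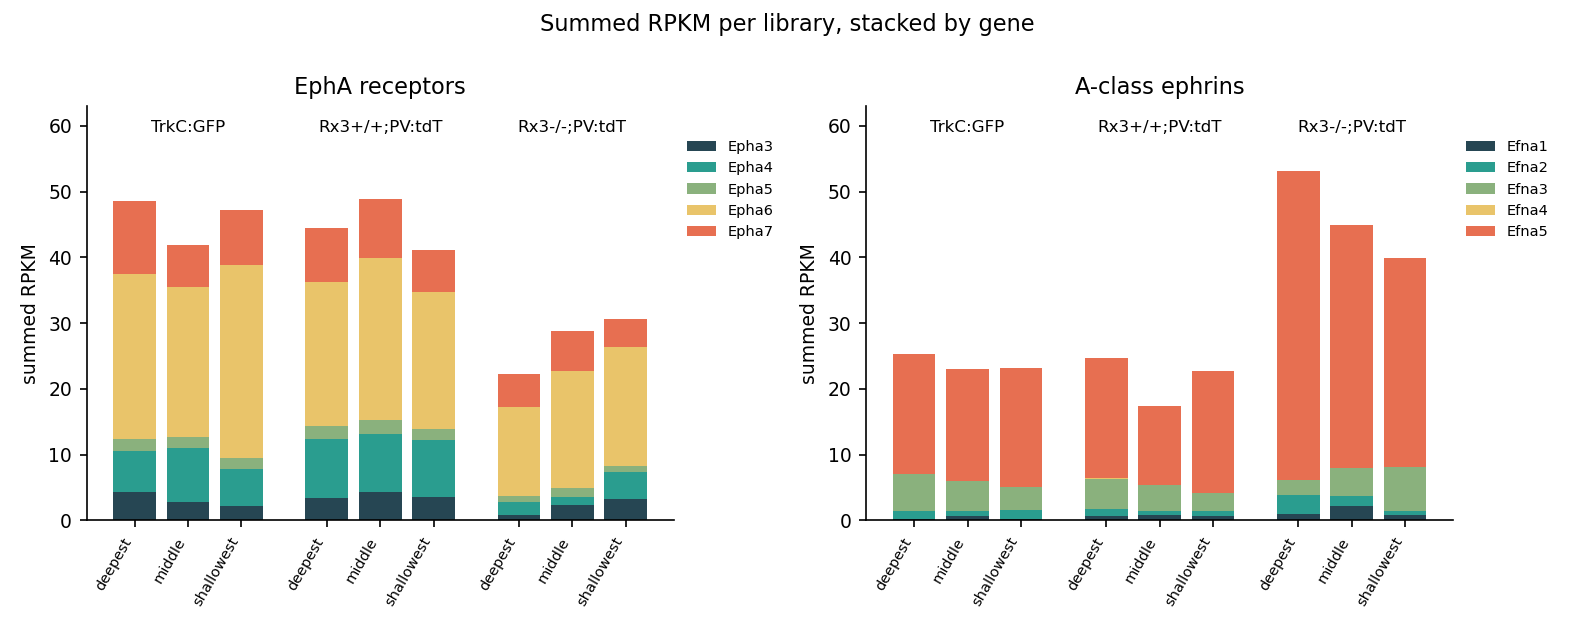
Summed RPKM of the 5 EphA receptors (left) and the 5 A-class ephrins (right) in each library, stacked by gene (linear axis from 0, the same on both sides). Receptor sums are 41.2 to 48.8 RPKM in the TrkC and wild-type PV libraries and 22.3 to 30.6 in the mutants, and ephrin sums are 17.4 to 25.3 and 39.9 to 53.1.

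How far each call rests on a single library differed among the genes. With all 9 libraries, limma-voom called 20.8% of fitted genes for TrkC and 26.8% for wild-type PV against mutants. With each of the 9 libraries left out in turn, the limma-voom log2 fold change of Epha4 ranged from 1.40 to 2.13 for TrkC over mutants and from 1.80 to 2.53 for wild-type PV. That of Efna5 ranged from -1.23 to -0.96 and from -1.39 to -1.08. Epha6 stayed called in all 9 fits for TrkC (0.51 to 0.75). Over the 10 genes, wild-type PV against mutants had 5 limma-voom calls with all libraries and 2 without the deepest or the middle wild-type PV library, or without the deepest mutant library. Over these 2 comparisons, Efna1 passed in 1 fit, for TrkC without the deepest mutant library, and Efna2 in 1, for wild-type PV without the shallowest mutant library. In the joint comparison with mutants Efna1 passed in 3 of 9 fits and Efna2 in 1.

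**Figure D4:**
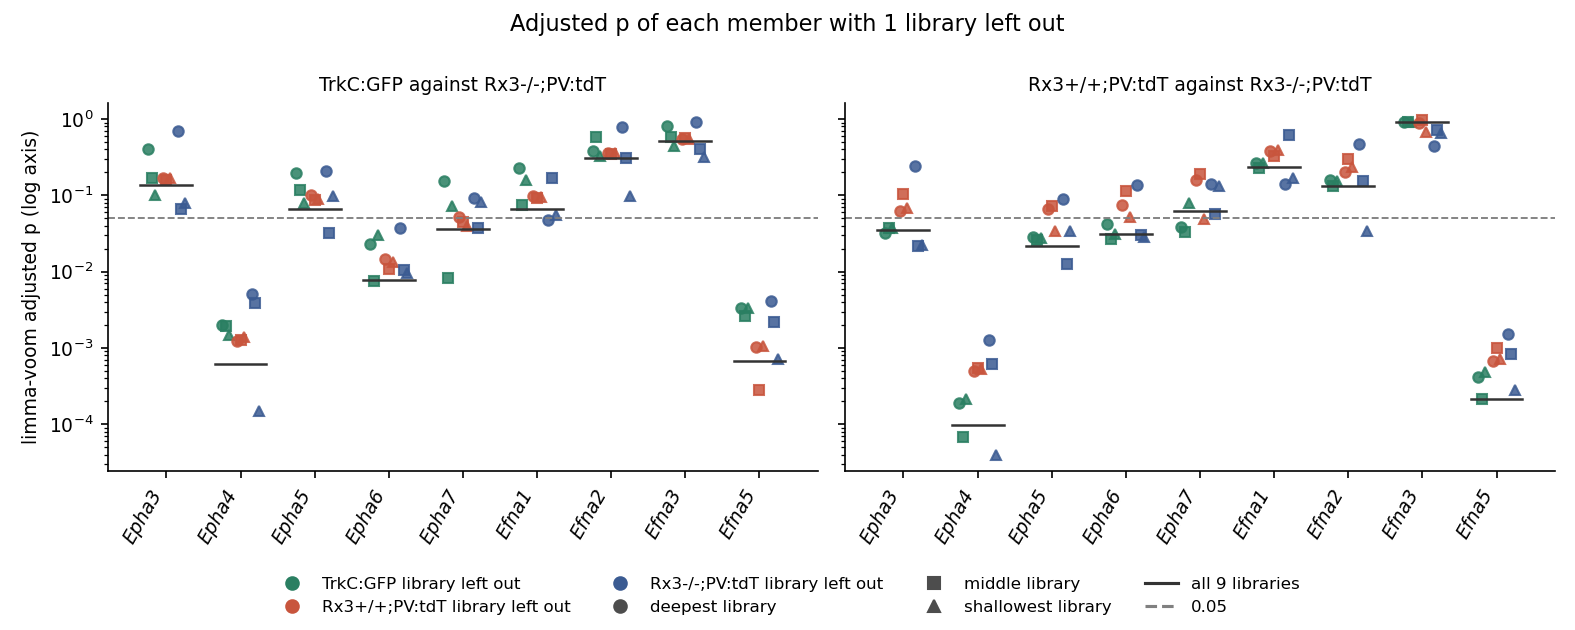
The limma-voom adjusted p (log axis) of each gene with 1 library left out, by comparison with mutant PV. Colour gives the group of the library left out, shape its depth, the bar the fit with all 9 libraries and the dashed line 0.05. The points of Epha4 and Efna5 lie below 0.05 in all 9 fits of both comparisons, and those of Epha7 fall on both sides.

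Of 39 other genes of the pathway, 5 were called higher and 5 lower in TrkC against mutant PV, and 6 higher and 8 lower in wild-type PV against mutant PV, all by the authors' deposited table. Those shares, 25.6% and 35.9%, stand beside the 17.5% and 29.1% of genes with a mean log2 CPM of at least 4. The 3 co-receptors for reverse signalling of ephrin-As were all higher in the mutants. Ret, the receptor of GDNF-family ligands, was at 11.4 RPKM in TrkC, 32.6 in wild-type PV and 211 in mutant PV in the authors' deposited table, with log2 fold changes against mutants of -4.21 (adjusted p = 1.65e-42 by edgeR) and -2.69 (adjusted p = 1.54e-19 by edgeR). Ntrk2, the BDNF receptor TrkB, was at 5.04, 1.36 and 2.68 RPKM in the TrkC libraries, 8.25, 3.07 and 6.25 in wild-type PV and 55.9, 74.5 and 45.8 in mutant PV. Ngfr, the neurotrophin receptor p75, was at 190, 183 and 693 RPKM in the 3 groups in the authors' deposited table. Ret and Ntrk2 also mark rapidly adapting mechanoreceptors, so they bear on the makeup of the groups as well.

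Effectors of forward signalling went both ways, with 5 of 28 higher and 2 lower in TrkC against mutants and 6 higher and 5 lower in wild-type PV against mutants. Those shares, 25.0% and 39.3%, stand beside 10.1% and 16.4% of all genes and 17.5% and 29.1% of those with a mean log2 CPM of at least 4. Vav3, a guanine nucleotide exchange factor that Eph receptors activate, was at 17.3, 15.4 and 16.4 RPKM in TrkC libraries, 16.9, 20.2 and 17.6 in wild-type PV and 6.0, 7.41 and 7.03 in mutant PV. The adaptor genes Grb10 and Nck1 were higher than in mutants by 1.68 and 1.13 in TrkC and by 1.41 and 1.18 in wild-type PV, log2 fold changes of the authors' deposited table. Inppl1, the lipid phosphatase SHIP2, was higher by 1.25 and 1.56 in the same authors' deposited table. Cdk5, a kinase downstream of EphA4, was higher by 0.64 in TrkC and by 0.71 in wild-type PV, again from the authors' deposited table. Tiam1, a Rac exchange factor, was higher by 1.00 in wild-type PV, and its value of 0.94 in TrkC did not pass (adjusted p = 0.11 by edgeR in the authors' deposited table). Ptpro, a phosphatase known in chick to remove phosphate from Eph receptors, had log2 fold changes against mutants of -2.72 and -2.52, and the phosphatase gene Ptpn1 of -1.13 and -1.18, in the authors' deposited table. Ptpro was at 3.43 to 7.5 RPKM in the 6 libraries with intact Runx3 and at 36.3, 41.5 and 30.9 in the mutants. The other effectors called lower in wild-type PV than in mutants were Abl2, Anks1 and Rock1. Their log2 fold changes in the authors' deposited table were -0.66 (adjusted p = 0.0023 by edgeR), -0.81 (adjusted p = 0.0122 by edgeR) and -0.76 (adjusted p = 0.0187 by edgeR). None of them was called in TrkC against mutants.

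The other 4 EphA receptors (Epha1, Epha2, Epha8 and Epha10) and the protease gene Adam10, whose product cuts ephrin-As, had no call against the mutants. Epha10, a receptor without kinase activity, was lower in wild-type PV than in TrkC, at -0.75 on the log2 scale in the authors' deposited table (adjusted p = 0.0302 by edgeR), at 3.79, 5.35 and 6.14 RPKM in TrkC libraries and 3.00, 3.29 and 2.78 in wild-type PV. Limma-voom did not call it, with a log2 fold change of -0.70 (adjusted p = 0.385). Efnb2, a B-class ligand that Epha4 also binds, was the highest ephrin of the lists, at 42.7 to 47.9 RPKM in TrkC, 50.3 to 57.5 in wild-type PV and 53.6 to 68.8 in mutant PV libraries, and was not called in these 3 comparisons of the authors' deposited table, though limma-voom called it lower in TrkC than in mutants at -0.41 on the log2 scale (adjusted p = 0.0292).

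**Figure D5:**
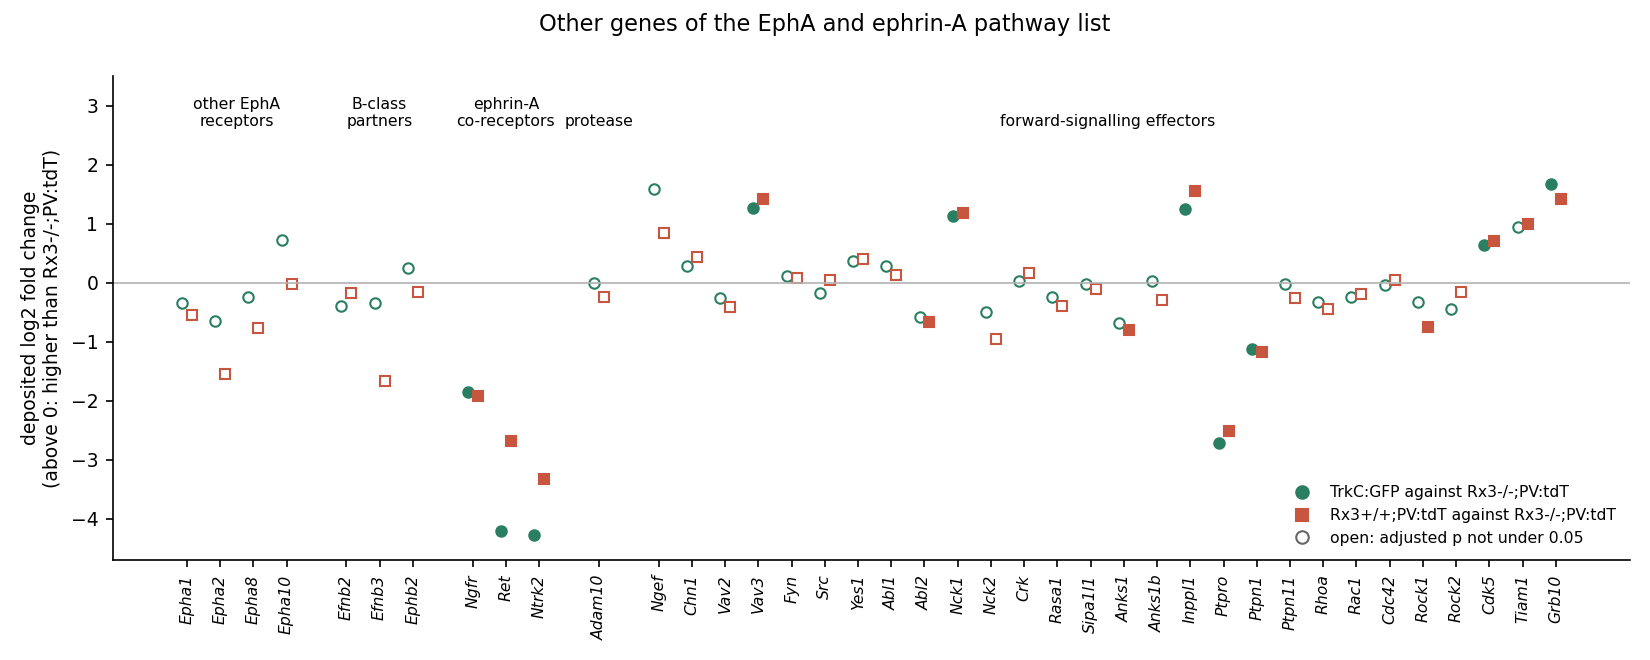
Deposited log2 fold change against Rx3-/-;PV:tdT of the 39 other pathway genes, grouped by role (circles TrkC:GFP, squares Rx3+/+;PV:tdT, filled where the adjusted p is under 0.05). Ngfr, Ret and Ntrk2 lie below 0 in both comparisons, at -1.86 to -4.27 for TrkC:GFP, and effectors lie on both sides.

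By their values in the 3 groups, the genes with a pattern most like Efna5 were Dock5, Mrpl52 and Srgap1, at distances of 0.18, 0.22 and 0.22 on the log2(RPKM + 0.1) scale, and 47 genes lay within 0.5. Dock5 was at 17.1, 18.1 and 36.8 RPKM in TrkC, wild-type PV and mutant PV in the authors' deposited table. For Epha4 they were Asah2, Wee1 and A330050F15Rik, at 0.15, 0.22 and 0.23, with 24 genes within 0.5. Such likeness over 3 group values is a description.

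Markers of cell types moved with the groups. Proprioceptor markers (4 of 6 with recovered reads) summed to 477 to 604 CPM in TrkC, 367 to 430 in wild-type PV and 86.2 to 161 in mutant PV libraries, and 5 of 6 and 6 of 6 were called higher than in mutants in the authors' deposited table. Markers of rapidly adapting mechanoreceptors (5 of 6 recovered) summed to 180 to 218, 259 to 265 and 1028 to 1160 CPM, and Mafa had 0 reads in all TrkC libraries. In the authors' deposited table, 5 of these 6 were called lower than in mutants in TrkC and 5 of 6 in wild-type PV. Calb1 of this list went the other way in TrkC, at 9.72 RPKM against 5.37 in wild-type PV and 5.25 in mutant PV. Markers of immature neurons (4 of 6 recovered) summed to 252 to 803, 286 to 424 and 766 to 1399, and nociceptor markers (5 of 6) to 41.7 to 72.1, 90.4 to 99.6 and 108 to 359. The nociceptor list was uneven: Calca had 1895, 75 and 1265 reads in the mutant libraries, Trpv1 had 0 in all 3, and in wild-type PV against mutants 2 of 6 were called higher and 3 lower in the authors' deposited table. Sensory neuron markers (3 of 7) summed to 304 to 390, 337 to 392 and 206 to 248, but the full list went both ways. Against mutants, 1 of the 7 was called higher and 2 lower in TrkC in the authors' deposited table. In wild-type PV 1 was called higher and 3 lower there. Prph, which is not in the sum, was at 351, 358 and 833 RPKM in TrkC, wild-type PV and mutant PV. Muscle markers (3 of 4) summed to 12.3 to 26.9, 1.81 to 3.29 and 1.32 to 2.22 CPM. Fibroblast sums (5 of 5) overlapped, at 15.6 to 39.3, 21.9 to 40.2 and 31.0 to 33.8, with 3 of 5 called higher and 1 lower in wild-type PV than in mutants in the authors' deposited table. Immune markers (4 of 4) were at 0.259 to 2.65 in all libraries. Glial markers (6 of 7) overlapped, at 345 to 603, 362 to 450 and 373 to 392. Endothelial and mural markers (6 of 6) were at 3.89 to 8.18, 3.54 to 6.92 and 8.87 to 26.4, and kidney markers (3 of 3) at 0.0 to 0.19, 0.0, and 64.2, 83.0 and 0.0 in the deepest, middle and shallowest mutant libraries. The part of neuron makeup, neuronal maturity and other cells in the differences of Epha4, Efna5 and the other members was not tested. Mutant samples were also younger on the labels, and age could not be set beside the values because no library could be tied to a sample.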

How the data were processed

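Per the labels' protocols, cDNA of sorted neurons was amplified, and single-end libraries were made with poly-A selection. The submitters' processing notes name mm10 and edgeR; no source used here names the aligner, the counting or versions. The authors deposited 5 comparison tables that hold log2 fold changes with mean log2 CPM, p-values with adjusted p, RPKM per group and a flag. The values called TrkC stand there under Rx3 and equal those given for the first 3 samples.

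A gene was called at an adjusted p under 0.05. That adjusted p equals the Benjamini-Hochberg value over all 23038 genes. No label says whether litters or sorting days were shared, so the p-values cover only how these samples vary.

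Deposited RPKM equalled the mean over 3 libraries of (reads + 1) per length and depth. Whole reads and the length were solved where 1 combination gave all 3 group values (22485 genes; 253 had several solutions, 296 too many reads, 4 none). RPKM per library was computed without the added read. The log2 ratios differed from the deposited fold changes by a median of 0.003 to 0.009. limma 3.58.1 (voom, library-size scaling) was then fitted to the 14167 genes with at least 30 recovered reads, a step chosen after seeing the data. Both steps were tested on simulated data (R 4.3.3, Python 3.11.15). The reads recovered are 53.1% to 56.4% of each library, since the most read genes are not among them. Limits of 3 reads cover counting error only, since reads of amplified cDNA are not independent molecules.

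The members and lists were chosen with earlier results of these data known. All 10 members are named. Of the pathway list, up to 5 called genes per direction and comparison with the largest log2 fold change are named. The other effectors called lower in wild-type PV against mutants were added to these. For likeness, the 3 nearest genes of the 2 members with the smallest adjusted p are named. Gene IDs of all 10 members matched a RefSeq table of GRCm38.p6, the primary assembly of mm10. Another gene of the pathway list is not reported here.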

Additional observations from a re-analysis of the deposited data

How the results depend on the processing

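No paired analysis was possible because the tables hold group values and recovered libraries carry no replicate number; fits planned on per-sample counts were not run for the same reason. Of the 10 genes, 4, 4 and 5 were called for TrkC, wild-type PV and both together against mutant PV. At an adjusted p under 0.01 these were 2, 2 and 3, with an added minimum of 1 for the log2 fold change 2, 2 and 2, and by Benjamini-Yekutieli adjustment 2, 2 and 2. The genes left were Epha4 and Efna5, with Epha7 for the joint comparison at 0.01. Limma-voom fits without 1 library called 3 to 5, 2 to 6 and 4 to 7 in these comparisons and 0 to 1 for TrkC against both PV groups, where median-ratio size factors called 1. The pathway list had 2 calls for wild-type PV against TrkC, 1 at 0.01, with the minimum fold or by Benjamini-Yekutieli, and 0 by limma-voom under either scaling or without any 1 library. For TrkC against both PV groups it had 2, with 1 at 0.01 or by Benjamini-Yekutieli, 4 by limma-voom, 6 with median-ratio size factors and 3 to 5 without 1 library; for the joint comparison it had 14, or 9 with the minimum fold. In the 3 comparisons of single groups, directions turned for uncalled values only: Efna3 for wild-type PV against mutants (-0.20) was 0.07 by limma-voom, 0.11 with median-ratio size factors and -0.40 to 0.27 without 1 library; Efna3 for TrkC against mutants (0.09) was -0.08 to 0.58 without 1 library; Efna4 for TrkC against mutants was 0.02 as an RPKM ratio; in wild-type PV against TrkC, Epha7 was -0.33 to 0.10 and Efna5 -0.26 to 0.05 without 1 library. Among uncalled values of the pooled comparisons, Efna3 for both against mutants was -0.04 deposited and 0.23 by limma-voom, and for TrkC against both PV groups Epha3 (0.05) fell to as low as -0.05 and Efna2 (-0.26) rose to 0.02 without 1 library. The cause was not tested. Of the single-gene values under alternatives in the 3 single-group comparisons, 334 kept direction and call, 17 gained a call, 19 lost it and 14 turned. At this depth Efna1, Efna2 and Efna4 rest on few reads.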
